A study of Homo sapiens with 4 samples.

Results

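The nuclear genes of the mitochondrial respiratory chain were read on 4 Affymetrix arrays of modified colorectal cancer cell lines. Members were the probe sets annotated to a single gene whose symbol begins with NDUFA, NDUFB, NDUFC, NDUFS, NDUFV, UQCR or ATP5, is one of SDHA to SDHD, or begins with COX and a digit from 4 to 8, with assembly factors left out. The rule took 157 of 54675 probe sets and 82 of 19775 genes. Of these genes, 77 code for proteins and 5 do not: the pseudogenes ATP5MC2P1 and COX6A1P1 and the long non-coding RNAs NDUFB2-AS1, NDUFV1-DT and NDUFV2-AS1. The 77 subunit genes were divided as 33 of complex I, 3 of complex II, 6 of complex III, 17 of complex IV and 18 of complex V.

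The study set 2 pairs of cultures side by side to ask about the homeobox factor CDX1 and the keratin gene KRT20. The human colorectal carcinoma line HCT116 gave the arrays HCT116-Vec and HCT116-CDX1, and the human colon adenocarcinoma line LS174T gave LS174T-siVec and LS174T-siCDX1. By their names the first array of each pair is a vector control, the second of HCT116 carries added CDX1 and the second of LS174T has CDX1 lowered; the labels used here describe neither the constructs nor whether a line was 1 clone or a pool. Each group had 1 array, so differences between 2 arrays have no replicate check and no p-value.

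The respiratory chain passes electrons from NADH and succinate to oxygen and uses the energy to pump protons out of the mitochondrial matrix. Complex I takes electrons from NADH, complex II from succinate, complex III passes them to cytochrome c, complex IV gives them to oxygen, and complex V, the ATP synthase, lets protons back in to make ATP. Most subunits are encoded in the nucleus and imported, a few are encoded in mitochondrial DNA, and complex II has nuclear subunits alone.

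Values are RMA levels on the log2 scale, on which a difference of 1 is 2-fold. Where a gene had several probe sets, the brightest on average stood for it. A gene was counted as measured where the brighter of 2 arrays reached 6, and said to have risen or fallen where it was measured and differed at least 2-fold. Of the 77 subunit genes, 76 reached 6 on some array and 65 read 10 or more on all 4 arrays. COX8C, a complex IV isoform gene, read 3.79 to 4.27 and was not measured. The median over the subunits was 11.92 on HCT116-Vec, 11.43 on HCT116-CDX1, 11.87 on LS174T-siVec and 11.98 on LS174T-siCDX1. The array labelled HCT116-CDX1 was thus the lowest, with the other 3 close together.

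CDX1 itself read 8.21 on HCT116-Vec and 8.24 on the array labelled HCT116-CDX1, so its probe set did not go with that label. It read 10.46 on LS174T-siVec and 9.06 on LS174T-siCDX1, a fall of 2-fold or more. KRT20 read 6.36 and 9.38 in the HCT116 pair and 8.15 and 5.45 in the LS174T pair. The arrays of a pair correlated over all probe sets with Pearson r of 0.988 (HCT116) and 0.989 (LS174T). All 8 markers of colorectal epithelium reached 6 on every array. On each array 5 of 6 fibroblast, 3 of 4 leukocyte and 2 of 4 endothelial markers also did. Of the 5 oxidative muscle markers, 3 or 4 did, so reaching 6 does not set epithelium apart. Over the 4 arrays the median of the 6 fibroblast markers was 6.79 to 7.05, of the 4 leukocyte markers read 6.48 to 6.65, of the 4 endothelial markers 6.10 to 6.21 and of the 5 oxidative muscle markers 6.04 to 6.20. Among them TNNT1 read 10.51 and 10.07 in HCT116, and the part of these markers in the results was not tested. The 45 bacterial and phage control probe sets differed by at most 0.364 in HCT116 and 0.339 in LS174T. In bulk RNA, fewer cells that express a gene and less RNA per cell cannot be told apart.

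Promoter sequences of 6 subunits are shown, those of the 3 that fell in the HCT116 pair (ATP5MC1, NDUFB2 and NDUFB3) and of 3 chosen among those that differed little there (SDHA, SDHD and UQCRC1). Each is the 150 bases before the RefSeq gene start in GRCh38.p14, written 5′ to 3′ in the direction of the gene, with motif matches in capitals.
ATP5MC1 (chr17:48892637-48892786, plus strand): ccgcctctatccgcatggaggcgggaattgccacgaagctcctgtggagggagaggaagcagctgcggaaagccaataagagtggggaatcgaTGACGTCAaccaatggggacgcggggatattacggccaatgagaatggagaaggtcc
NDUFB2 (chr7:140696558-140696707, plus strand): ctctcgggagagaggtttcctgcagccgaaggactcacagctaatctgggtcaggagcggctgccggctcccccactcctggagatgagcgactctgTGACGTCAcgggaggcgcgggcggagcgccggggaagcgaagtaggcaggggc
NDUFB3 (chr2:201071851-201072000, plus strand): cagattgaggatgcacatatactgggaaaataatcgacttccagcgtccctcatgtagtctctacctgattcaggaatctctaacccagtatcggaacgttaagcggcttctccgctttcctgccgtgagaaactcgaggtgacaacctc
SDHA (chr5:218170-218319, plus strand): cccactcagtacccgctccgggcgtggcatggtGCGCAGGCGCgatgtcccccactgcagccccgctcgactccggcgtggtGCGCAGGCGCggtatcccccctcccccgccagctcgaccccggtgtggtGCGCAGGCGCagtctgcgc
SDHD (chr11:112086723-112086872, plus strand): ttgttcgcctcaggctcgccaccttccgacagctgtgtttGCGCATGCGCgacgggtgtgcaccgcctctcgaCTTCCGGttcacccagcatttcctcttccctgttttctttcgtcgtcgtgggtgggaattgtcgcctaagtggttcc
UQCRC1 (chr3:48609647-48609796, minus strand): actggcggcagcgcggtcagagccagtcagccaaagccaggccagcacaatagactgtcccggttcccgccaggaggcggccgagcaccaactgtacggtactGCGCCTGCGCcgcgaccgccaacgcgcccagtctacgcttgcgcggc
The letters searched on both strands were the NRF1 motif, CCGGAAG for GABP, AAGATGG for YY1, AAGGTCA for ERRalpha and TTTATNG for CDX factors. TGACGTCA for the cyclic AMP response element was also searched, and was added after these sequences were read. The NRF1 motif was the letters in capitals in SDHA, with any base allowed in the place right after the A. It need not read the same on the opposite strand. ATP5MC1 holds TGACGTCA at -57 and NDUFB2 at -53 from the start, NDUFB3 holds no match in its window, and SDHA holds the NRF1 motif in 3 places in its window. SDHD holds the NRF1 motif on both strands at the same place and the GABP letters on the opposite strand. UQCRC1 holds the NRF1 motif on the opposite strand.

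Across the HCT116 pair the nuclear subunit genes were lower on the array labelled HCT116-CDX1 by a small amount in nearly every case. Of 76 measured subunits, 73 were below their HCT116-Vec level, where 51.0% of all 16914 measured genes were. Their median difference was -0.46, against -0.01 over all measured genes, which is a median of 1.38-fold lower. Few passed 2-fold: 3 fell and 0 rose, where 0.97% of all measured genes fell and 0.916% rose. At 1.5-fold, 26 were lower and 0 higher, where 6.11% and 3.37% of all measured genes were.

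**Figure D1:**
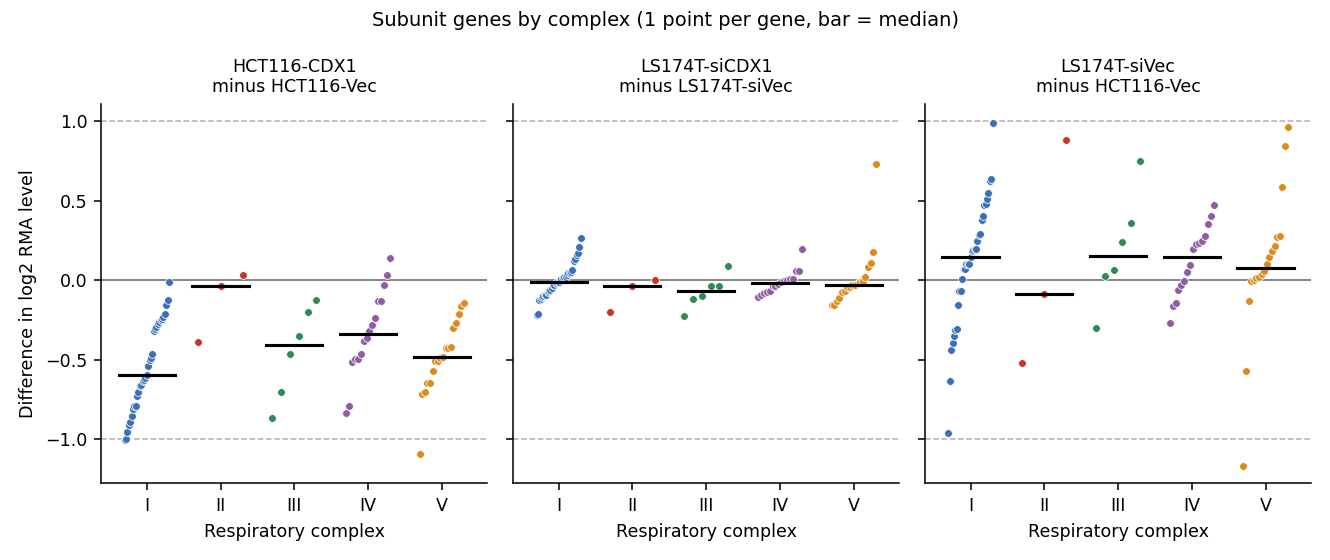
Differences in log2 RMA level of each measured subunit gene (points) by respiratory complex, with the median as a bar and dashed lines at 2-fold, for both pairs and for the vector arrays. In the HCT116 panel all 33 points of complex I and all 18 of complex V lie below 0, while the LS174T panel is centred near 0.

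Complex I, the largest complex, was lower in 33 of 33 measured subunits, with a median of -0.60. Its 5 core subunits, which carry out electron transfer, had a median of -0.71 and its 28 accessory subunits one of -0.57. NDUFB2, an accessory subunit of the membrane arm, read 11.63 on HCT116-Vec, 10.62 on HCT116-CDX1, 12.62 on LS174T-siVec and 12.66 on LS174T-siCDX1. It fell by 1.01 in the HCT116 pair and was lowest on the array labelled HCT116-CDX1, and its second probe set fell short at -0.94. NDUFB3, another membrane arm subunit, read 11.18, 10.17, 11.36 and 11.25 in the same order of arrays, and fell 2.00-fold. For NDUFB3 the other 3 arrays lay together and the array labelled HCT116-CDX1 lay below them, whereas for NDUFB2 both HCT116 arrays lay below the LS174T arrays.

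Just short of 2-fold were NDUFA7 at -0.96 (10.24 and 9.28) and NDUFA2 at -0.91 (10.79 and 9.88), both accessory subunits. Among core subunits the difference was -0.79 for NDUFS7, -0.73 for NDUFS3 and -0.71 for NDUFV2, but -0.27 for NDUFS1 and -0.15 for NDUFV1, the subunit that binds NADH. The smallest differences in the complex were -0.01 for NDUFA10 and -0.12 for NDUFA11. Complex I was therefore not lower by one common amount: its members ranged from 1.01-fold to 2.01-fold lower.

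Complex II had the smallest median difference, read from SDHA, SDHC and SDHD alone, since SDHB was not among the members. SDHA, the catalytic flavoprotein that oxidises succinate, read 10.63 on HCT116-Vec and 10.59 on HCT116-CDX1, a difference of -0.04. SDHD, a membrane anchor, read 11.95 and 11.98, a difference of 0.03. SDHC, the other anchor, read 11.23 and 10.84, a difference of -0.39, and of its 7 probe sets the 4 with the highest levels gave -0.37 to -0.42 while 1 dimmer one gave 0.54. With 3 genes, the median of -0.04 rests on SDHA.

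Complex III was lower in 6 of 6 subunits, with a median of -0.41. UQCRQ, a small accessory subunit, read 12.34 and 11.47 in the HCT116 pair, a difference of -0.87, and UQCR10 12.94 and 12.24, a difference of -0.70. The core proteins differed less, by -0.12 for UQCRC1 (12.13 and 12.01) and -0.20 for UQCRC2 (12.41 and 12.21). In this complex the 4 accessory subunits had a median of -0.58 and the 2 core proteins one of -0.16.

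In complex IV, cytochrome c oxidase, 14 of 16 measured subunits were lower, with a median of -0.34. COX7B read 12.50 and 11.66, a difference of -0.84, and COX6B1 11.48 and 10.69, a difference of -0.79. The 10 common nuclear subunits had a median of -0.48, among them COX8A at -0.50, COX7A2 at -0.50, COX6A1 at -0.46 and COX4I1 at -0.32. The tissue isoforms COX4I2, COX6A2, COX6B2, COX7A1 and COX7B2, several of them known from muscle, lung or testis, had a median of -0.03 and differed by -0.36 to 0.14. These 5 isoform probe sets read 5.78 to 7.89 over all arrays, near the level of 6 that counts as measured. COX7A2L, which joins complexes III and IV, differed by -0.13.

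Complex V was lower in 18 of 18 subunits, with a median of -0.49. ATP5MC1, one of 3 genes for the proton-carrying c ring, read 11.91 on HCT116-Vec, 10.82 on HCT116-CDX1, 11.33 on LS174T-siVec and 11.35 on LS174T-siCDX1. It fell by 1.09, a difference of 2.13-fold, and was lowest on the array labelled HCT116-CDX1. ATP5MC3 and ATP5MC2, which encode the same mature c subunit, differed by -0.48 and -0.30. The 5 subunits of the F1 head had a median of -0.27, from -0.15 for the alpha subunit ATP5F1A to -0.65 for the epsilon subunit ATP5F1E. The 4 subunits of the peripheral stalk had a median of -0.46. The 5 membrane subunits had one of -0.57, led by ATP5ME at -0.72 (11.92 and 11.21). ATP5MJ, another membrane subunit, differed by -0.71 on its brightest probe set. Its dimmer probe set passed 2-fold at -1.01 (11.39 and 10.38), so the choice of probe set bears on which genes are counted. ATP5IF1, the inhibitor of the synthase, differed by -0.51.

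**Figure D2:**
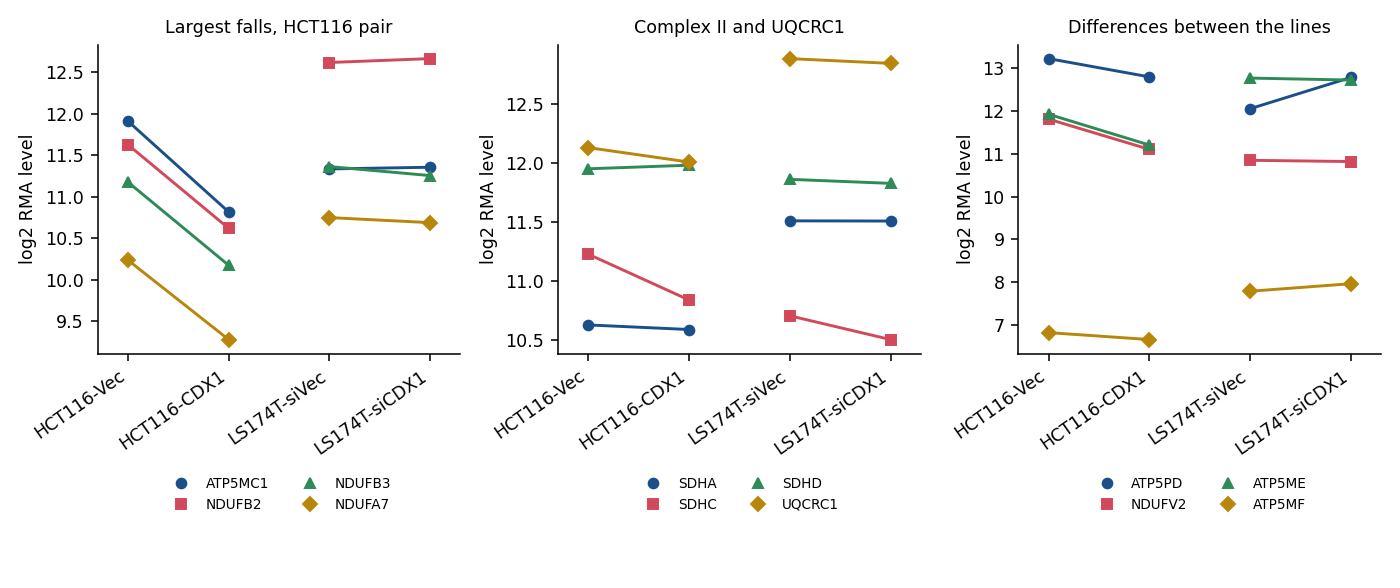
Log2 RMA levels of 12 subunit genes on each of the 4 arrays, 1 point per array, with lines joining the arrays of a pair. The first panel shows ATP5MC1, NDUFB2, NDUFB3 and NDUFA7 lowest on HCT116-CDX1, the second complex II with UQCRC1, and the third genes that differed between the lines.

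In the HCT116 pair the median difference was larger for these genes than for other genes of like level. In level ranges chosen after the data were seen, other genes had medians of -0.08 at levels of 10 to 11, -0.12 at 11 to 12, -0.13 at 12 to 13 and -0.06 at 13 to 15. The subunits in the same ranges had medians of -0.79, -0.50, -0.48 and -0.26. With a smooth trend of difference on level taken out, 0 subunits passed 2-fold (ATP5MC1 -0.98, NDUFB2 -0.90, NDUFB3 -0.90) and the median was -0.37. When probe sets that may detect several transcripts (suffix x or s) were left out, the median was -0.30, with complex V at -0.20.

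**Figure D3:**
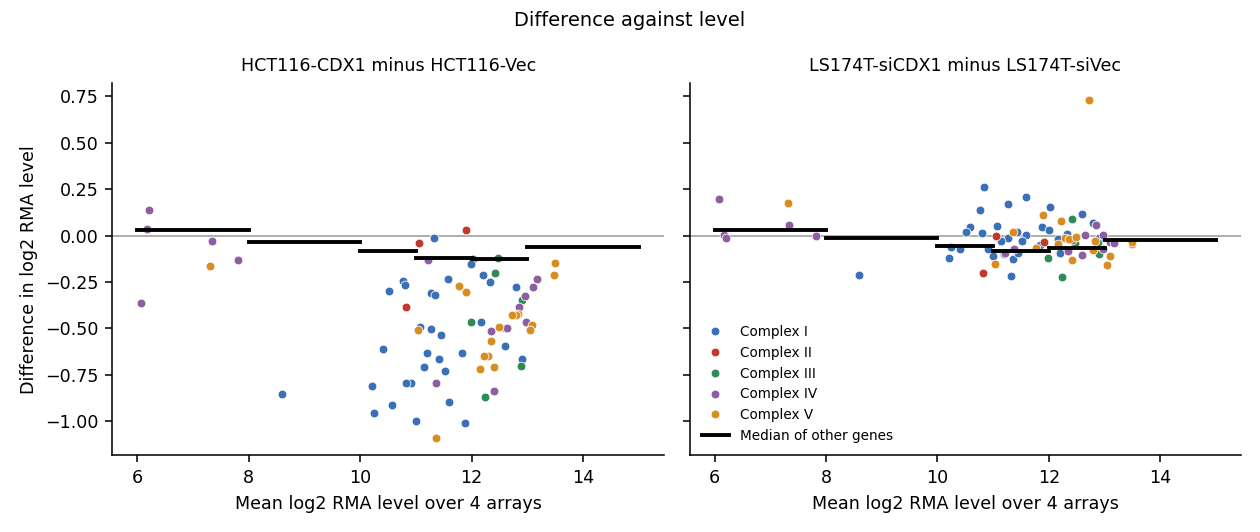
Difference in log2 RMA level against mean level over the 4 arrays for each subunit gene, coloured by complex, with black bars for the median of all other genes in a range of level. Most HCT116 points above level 10 lie under the bars, and the LS174T points lie around them.

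The other parts of oxidative metabolism were lower in the HCT116 pair to different degrees. Complex I assembly factors had a median of -0.54, and 2 of 16 fell, NDUFAF8 by 1.08 (11.37 and 10.29) and NDUFAF4 by 1.04 (11.14 and 10.11). Assembly factors of complexes II to V had a median of -0.41, and 1 of 35 fell, FMC1, a factor of ATP synthase assembly, by 1.03. Among 21 genes of cytochrome c, ubiquinone synthesis and other electron donors the median was -0.34, and COQ3, a methyltransferase of ubiquinone synthesis, fell by 1.12. In the citric acid cycle and pyruvate dehydrogenase list the median of 23 genes was -0.18, and MPC1, part of the mitochondrial pyruvate carrier, fell by 1.59 (9.40 and 7.80).

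Most subunits encoded in mitochondrial DNA did not go with the nuclear ones. Over the 7 read here (ND2, ND4, ND6, COX1, COX2, COX3 and ATP6) the median difference was 0.09, and 6 of 7 were higher on the array labelled HCT116-CDX1. COX1 read 13.82 and 13.84, COX3 12.12 and 12.74, and ND6 7.91 and 7.53. Over the arrays ND2, ND4, COX1, COX2 and ATP6 read 13.56 to 14.54, where the highest value of any probe set was 14.62. The 6 nuclear subunits at levels of 13 to 15 also differed less, by a median of -0.26. Of the mitochondrial DNA subunits further below 14.62, COX3 was higher and ND6 lower. The part of level in these differences was not tested. Among 18 genes of mitochondrial DNA expression and the PGC-1 regulators the median was -0.38 and 0 rose or fell. TFAM, which packages mitochondrial DNA and drives its transcription, differed by -0.66, the coactivator gene PPARGC1B by -0.78, NRF1 by -0.48, YY1 by 0.01 and GABPA by 0.21.

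Lists of other large complexes were added after the data were seen. Mitochondrial ribosomal proteins had a median of -0.61 with 74 of 75 below 0, and proteasome subunits one of -0.43 with 32 of 33 below 0. Cytosolic ribosomal proteins had a median of -0.06 with 41 of 58 below 0. Of the 59 cytosolic ribosomal genes, 48 had a mean level of 13 or more, where the highest value of any probe set was 14.62 and where the subunits also differed less. The other 11 had a median of -0.18 in the HCT116 pair, with RPL26L1 at -0.87 and RPS27L at -0.79. Here too the part of level was not tested.

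**Figure D4:**
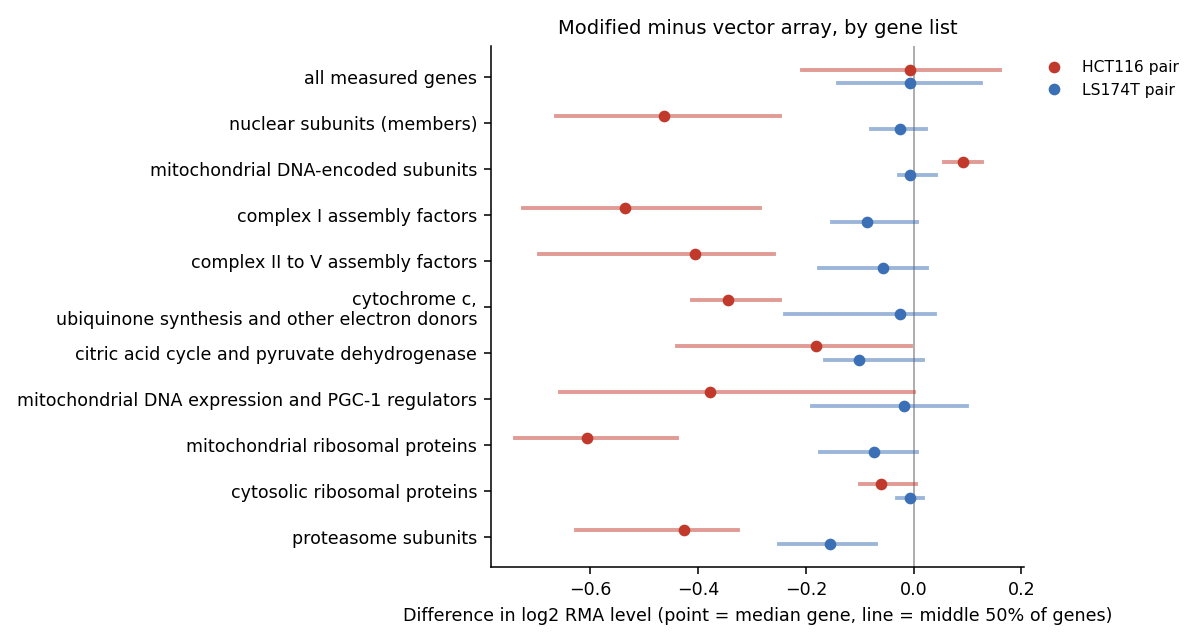
Median difference in log2 RMA level (point) and the middle 50% of genes (line) by gene list, for the HCT116 pair (red) and the LS174T pair (blue). In red, the nuclear subunits are at -0.46, the subunits of mitochondrial DNA at 0.09 and cytosolic ribosomal proteins at -0.06, and the blue medians lie between -0.16 and -0.01.

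In the LS174T pair, where CDX1 was lower on LS174T-siCDX1, the respiratory chain differed little. Of 76 measured subunits 0 rose and 0 fell, where 0.598% and 1.25% of all measured genes did, and the median difference was -0.03, with 48 below 0, where 51.2% of all measured genes were. By complex the medians were -0.01 for I, -0.03 for II, -0.07 for III, -0.02 for IV and -0.03 for V. ATP5PD, a peripheral stalk subunit, was the 1 protein-coding subunit past 1.5-fold, where 1.72% of all measured genes were that much higher, and 0 were 1.5-fold lower, where 3.24% were. It read 13.23 on HCT116-Vec, 12.80 on HCT116-CDX1, 12.05 on LS174T-siVec and 12.78 on LS174T-siCDX1, so LS174T-siVec was the low array. Its dimmer probe set differed by 0.15 in this pair. NDUFS7 differed by 0.26, NDUFA10 by -0.22 and UQCRQ by -0.22, each inside the largest difference of the control probe sets.

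Genes around the chain also differed little in the LS174T pair, with exceptions outside the subunits. SQOR, which passes electrons from sulfide to ubiquinone, read 10.85 and 9.19 and fell, and COXFA4L3, a relative of a complex IV subunit that the prefix rule does not take, read 9.52 and 6.29 and fell by 3.24. COXFA4, the common form, differed by -0.19. The median was -0.09 for complex I assembly factors and -0.01 for subunits of mitochondrial DNA.

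Between the vector arrays, LS174T-siVec was slightly higher than HCT116-Vec, with a median of 0.10 over the subunits and 53 of 76 above 0, where 50.8% of all measured genes were. Of 76 measured subunits 0 rose and 1 fell, where 6.03% and 7.33% of all measured genes did. The 1 that fell was ATP5PD, by 1.17, and it differed by -0.01 between the other array of each line. Just short of 2-fold were NDUFB2 at 0.99, ATP5MF, a membrane subunit of ATP synthase, at 0.97, and NDUFV2 at -0.96. The 1 probe set of ATP5MF read 6.82 on HCT116-Vec and 7.79 on LS174T-siVec, near the level that counts as measured. At 1.5-fold 8 were higher and 3 lower, where 12.2% and 14.3% of all measured genes were.

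The other array of each line was set side by side after the data were seen. From HCT116-CDX1 to LS174T-siCDX1 the median was 0.56, 9 subunits rose and 0 fell, where 6.22% and 7.3% of all measured genes did. Here 68 of 76 were above 0, where 52.0% of all were, and at 1.5-fold 37 were higher and 0 lower, where 13.3% and 14.0% were. By complex the medians were 0.65 for I, -0.15 for II, 0.60 for III, 0.37 for IV and 0.58 for V. NDUFB2 differed by 2.04, from 10.62 to 12.66, NDUFS7 by 1.53 and ATP5ME by 1.52. The size of the line difference therefore depended on which arrays stood for the lines.

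**Figure D5:**
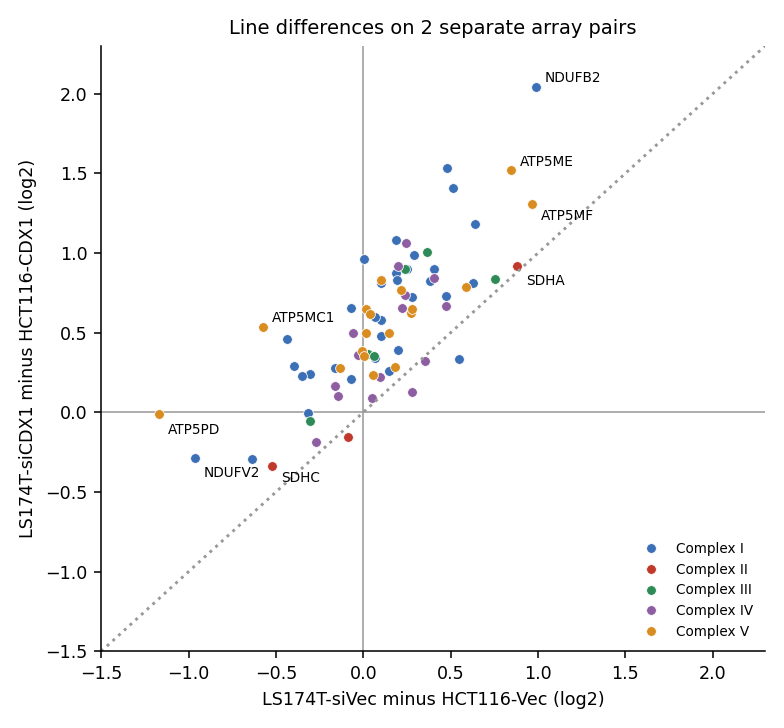
Difference of LS174T from HCT116 in log2 RMA level for each subunit gene on the vector arrays (horizontal axis) and on the other array of each line (vertical axis), coloured by complex, with a dotted line of equal values. Most points lie above the dotted line, and NDUFB2, ATP5ME, ATP5MF and SDHA are high on both axes.

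Some subunits differed between the lines on every array. Both LS174T arrays lay above both HCT116 arrays for 46 of 76 subunits, where 32.4% of all genes tested did, and below them for 7, where 30.3% did. These counts go by order alone, and the gap was as small as 0.0039 for NDUFA2. By at least 1.5-fold, 7 lay above, where 7.1% did, and 0 below, where 8.58% did. SDHA read 10.63 and 10.59 in HCT116 and 11.51 and 11.51 in LS174T, and UQCRC1 12.13 and 12.01 against 12.88 and 12.84. In both genes the lines were apart by much more than the arrays of a line. ATP5MF read 6.82 and 6.66 against 7.79 and 7.96, near the level that counts as measured. ATP5ME read 11.92 and 11.21 against 12.77 and 12.72. On the low side, SDHC read 11.23 and 10.84 against 10.71 and 10.51, and NDUFV2 11.81 and 11.10 against 10.85 and 10.82. Their gaps between the lines were 0.13 and 0.26. Control probe sets differed by up to 0.508 between the vector arrays and 0.416 between the other array of each line.

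A limma fit of all 4 arrays, with the cell line and the CDX1 label as terms and 1 residual degree of freedom, tested 17280 genes. Its p-values take as spread how far the HCT116 and LS174T pairs disagree on the CDX1 label difference, moderated across genes. The arrays are differently modified cultures, so this is not a spread between replicates. For the line term 8 of 76 subunits were higher in LS174T and 0 lower at an adjusted p of 0.05, where 7.37% of all genes were higher and 8.73% lower. The coefficient was 1.14 ± 0.15 (SE) for ATP5MF (limma adjusted p = 0.0142), 0.90 ± 0.15 for SDHA (0.0243) and 1.52 ± 0.27 for NDUFB2 (0.0303). The ATP5MF value rests on 1 probe set that read 6.66 to 7.96 over the arrays, near the level that counts as measured. UQCRC1, NDUFS7, ATP5ME, NDUFA3 and NDUFV1 also passed, with coefficients of 0.72 to 1.18 and limma adjusted p of 0.0352 to 0.0431. For the CDX1 label term 0 subunits and 0% of all genes passed; 2 subunits, ATP5PD and NDUFS7, and 518 genes had an unadjusted limma p under 0.05.

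The promoters of 66 of the 77 subunit genes were found among 27305 RefSeq promoters of 300 bases. The NRF1 letters were in 24.2% of the 66 and in 6.28% of all promoters, the GABP letters in 27.3% and 10.7%, YY1 in 22.7% and 6.06%, and ERRalpha in 12.1% and 3.97%. The CDX letters were in 9.09% of the 66 and in 10.1% of all. Of 26 promoters of subunits at least 1.5-fold lower in the HCT116 pair and 40 of the others, a split made after the values were seen, NRF1 letters were in 5 and 11, GABP in 7 and 11, YY1 in 6 and 9, and CDX in 2 and 4. ERRalpha letters were in 2 and 6. TGACGTCA was in 6.06% of the 66 and in 1.98% of all promoters, and in 3 of the 26 and 1 of the 40. These 4 were ATP5MC1, ATP5ME, NDUFA10 and NDUFB2, whose differences in the HCT116 pair ran from -1.09 to -0.01. The ATP5MC1 and NDUFB2 promoters were read before TGACGTCA was added to the search. Its counts were thus partly set by that choice and are no test. A match is a description of letters, not of binding.

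The 5 non-coding members differed by -0.42 to 0.06 in the HCT116 pair, and 0 of them rose or fell there. NDUFV2-AS1, antisense to NDUFV2, read 6.12 and 6.82 in the LS174T pair, the 1 non-coding member past 1.5-fold there, near the level that counts as measured.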

How the data were processed

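Per the labels' protocols, RNA was extracted with RNeasy and biotinylated cRNA was made from 2 µg with an Enzo kit. The deposited values are log2 expression that the authors computed with RMA, per the submitters' processing notes, with its version and the arrays normalised together not given in the sources used here. RMA subtracts background and equalises array distributions, which can compress small differences. Of 54675 probe sets, 41097 had 1 gene in the platform annotation, 1801 several and 11777 none; the last 2 kinds were not used, so some subunits are not analysed here. The brightest probe set on average stood for each of 19775 genes. Differences of log2 values were computed with Python 3.11.15, and limma 3.58.1 in R 4.3.3 gave Benjamini-Hochberg adjusted p-values; the fit was tested on simulated data. The number of arrays limits the precision.

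Members and lists were chosen with earlier results of these data known. Named genes were drawn from CDX1, members past 2-fold, the 2 largest rises and falls of each complex, and complex II. They were also drawn from complex IV isoforms with their counterparts, and list members past 2-fold or else the largest. Not all of these are named for every comparison, least of all between the vector arrays. A gene not named may still have differed. Other genes, the 6 printed promoters, the level ranges and the order of arrays by line were chosen after values were seen. The alternatives tried were a floor of 7 or none, quantile normalization, equal medians, loess removal (span 0.3), the mean of probe sets, no shared probe sets, 1.5-fold and 3-fold limits, no isoform genes and an intensity trend in limma.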

Additional observations from a re-analysis of the deposited data

How the results depend on the processing

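No named subunit past 2-fold changed direction under the alternatives run, while the LS174T median over all subunits, near 0, ran from -0.05 to 0.04. In the HCT116 pair the count of 3 subunits past 2-fold became 1 after quantile normalization, 0 after loess removal, 1 without shared probe sets, 26 at 1.5-fold and 0 at 3-fold. Its median for complex I became -0.42 with the mean of probe sets and -0.40 without shared probe sets, where complex III was -0.21, complex V -0.20 and all subunits -0.30; over the alternatives run the last ranged from -0.49 to -0.30. In the LS174T pair the count of 0 became 1 at 1.5-fold. Between the vector arrays the count of 1 became 2 after quantile normalization, 2 after loess removal, 0 with the mean of probe sets, 11 at 1.5-fold, 0 at 3-fold and 9 on the other array of each line, where the medians were 0.65 for complex I, 0.60 for III, 0.37 for IV, 0.58 for V and 0.56 for all. The limma count of 8 for the line term became 13 after quantile normalization. The cause of these moves was not tested. No paired analysis was possible because each group has 1 array and the labels give no replicate numbers to pair; the limma fit took the cell line as a term, so its CDX1 label term compares arrays within a line. Without replicate cultures, no difference within a pair can be set against the spread between cultures.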

Other observations

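Subunits were counted that went in opposite senses of the CDX1 label in the 2 lines. By sign alone 47 of 76 did, which includes differences near 0. With both differences past the largest control probe set difference of their pair, 0.364 and 0.339, 0 did. With limits of 1.5 SD of the control probe sets in both pairs, or 2 SD in HCT116 and 1.5 SD in LS174T, the same 3 subunits did: NDUFB7, SDHC and UQCRQ. These 4 limits were tried after the values were seen, the SD limits first, and the difference between the lines was not tested. The share of all measured genes meeting each limit was not computed. Whether these counts are particular to the subunits was therefore not tested.

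A dim probe set of ATP5IF1, the inhibitor of ATP synthase, read 8.79 and 8.65 in HCT116 and 10.76 and 10.72 in LS174T, while the brightest probe set of the gene read 11.07 and 10.56 against 11.34 and 11.19.

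COX3, encoded in mitochondrial DNA, read 12.12 and 12.74 in HCT116 and 11.11 and 11.21 in LS174T, while COX2 read 14.42, 14.54, 14.36 and 14.34 in the same order.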
